A study of Mus musculus with 6 samples.

Results

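The insulin-like growth factor (IGF) family was examined in hearts of mice with and without Cre recombinase on floxed alleles of PHD2 and PHD3. The family here comprises 10 genes: the ligands Igf1 and Igf2, the receptors Igf1r and Igf2r, and the binding proteins Igfbp2, Igfbp3, Igfbp4, Igfbp5, Igfbp6 and Igfbp7. They were taken as every gene probe of the array whose RefSeq accession belongs to one of these symbols, which gave 14 probes for 10 of the 20128 genes with a symbol on the array. Of these genes, 8 had a signal that could be tested. Igfbp2 and Igfbp7 were too dim.

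Heart RNA of C57/B6 mice aged 8 weeks was profiled on Agilent 1-colour arrays, 1 array per heart. The KO-labelled group held 3 hearts with the genotype PHD2/3f/f; Cre+/-, and the control group 3 hearts with the genotype PHD2/3f/f; Cre-/-, so both groups carried the floxed alleles. Which promoter drove Cre, whether a drug induced it, which exons it removes and whether the mice were male or female are not given in the labels. Their RNA protocols name both a Qiagen column method for hearts and a kit for blood that removes globin messages. The labels call the hearts biological replicates.

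On each array 46.3% to 51.0% of probes lay well above background, the 75th percentile of the signal was 147 to 235, and 0 probes were saturated. Egln1, the gene of PHD2, had a mean log2 signal of -0.01 ± 0.34 in KO-labelled hearts, against 1.22 ± 0.21 in control hearts (SD, n = 3 each). Egln3, the gene of PHD3, had 4.54 ± 0.27 in KO-labelled hearts, against 2.57 ± 0.13 in control hearts (SD, n = 3 each), so it went against the label at face value. The positions of its 2 probes within the floxed gene are not known, so these probes do not check the deletion, and the hearts are called KO-labelled throughout. Egln2, the gene of PHD1, had a log2 difference of -0.27 that did not pass (adjusted p = 0.140, limma). The heart identity of the samples was checked with cardiomyocyte markers. The summed signal of 7 such genes was 4479 to 5412 times the 75th percentile in KO-labelled hearts and 6645 to 9057 times in control hearts. Control replicate 2 stood nearest to the KO-labelled hearts, with a correlation of log2 values across genes of 0.949 to 0.970 with them, where control replicates 1 and 3 had 0.921 to 0.956. All 6 arrays lay on 1 slide, with the KO-labelled arrays in slide column 2 and the control arrays in slide column 1, so that column and genotype cannot be told apart.

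IGF-I and IGF-II are small secreted hormones related to insulin. IGF-I acts through the tyrosine kinase receptor encoded by Igf1r, which recruits insulin receptor substrates and the PI3 kinase and Akt pathway, and in heart muscle it is known for growth and survival of cardiomyocytes. The receptor encoded by Igf2r carries lysosomal enzymes and clears IGF-II, without a kinase of its own. Most IGF outside cells is held by the binding proteins, which lengthen its life, keep it from the receptor or bring it to the matrix, and proteases release it from them. Liver makes most circulating IGF-I, and fibroblasts and macrophages are among the local sources in tissues. With oxygen at hand, PHD2 and PHD3 tag the hypoxia-inducible factors (HIF) for breakdown, and Igf2, Igfbp2 and Igfbp3 are known as HIF-responsive genes from cultured cells.

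Signals are given as log2 of the scanner's processed signal minus the array's 75th percentile, so that a value of 0 is as bright as that percentile. Differences are KO-labelled minus control on that scale, tested with limma's moderated test across all genes with Benjamini-Hochberg adjustment, and an adjusted p under 0.05 counts as passed. Levels of different probes are not compared with each other. Of the 8 tested family genes, Igf1 and Igf1r were higher in KO-labelled hearts, 0 were lower and 6 did not pass. Among all 20020 genes and unnamed features tested, 16.1% were higher and 23.0% lower, 39.1% in all. The groups did not overlap for 2 of the 8 family genes, both higher in KO-labelled hearts, against 55.9% of all features, with 22.7% apart and higher in KO-labelled hearts. The median difference of the 8 genes was 0.00, beside -0.11 for all features.

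The ligand Igf1 (NM_010512) rose about 4-fold. Its brightest probe had log2 signals of 3.16, 2.65 and 2.91 in KO-labelled hearts, against 0.39, 1.35 and 0.72 in control hearts. Every KO-labelled heart lay above every control heart, and control replicate 2 was the highest of the controls. The means were 2.91 ± 0.25 in KO-labelled hearts and 0.82 ± 0.49 in control hearts (SD, n = 3 each), a log2 difference of 2.09 ± 0.27 (SE) or 4.25-fold (adjusted p = 0.00356, limma; higher in 3 of 3 hearts). Igf1 was measured by 4 probes, all named by the same accession and each printed as 2 spots, and all were well above background on all 6 arrays. The groups were apart for each of them. The other three probes had log2 differences of 1.92 ± 0.22, 2.12 ± 0.28 and 1.38 ± 0.18 (SE), which are 3.79-fold, 4.34-fold and 2.60-fold. Igf1 passed under all 19 alternative settings and omissions of single hearts that were run, with log2 differences of 1.87 to 2.35 and adjusted p of 6.21e-05 to 0.0296.

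The second ligand gene, Igf2 (NM_010514), had log2 signals of -1.49, -1.72 and -1.70 in KO-labelled hearts, against -2.06, -0.64 and -1.90 in control hearts. The groups overlapped, since control replicate 2 was above all the other hearts and the remaining controls lay below all KO-labelled ones. The log2 difference was -0.10 ± 0.37 (SE; 95% interval -0.98 to 0.78, adjusted p = 0.847, limma). Without control replicate 2 it was 0.35 (adjusted p = 0.0833), so the value rests on that heart. It was also above 0 after cyclic loess scaling (0.03) and spike-in scaling (0.14).

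Igf1r (NM_010513), the receptor that carries the IGF-I signal, was higher by a smaller amount. Its log2 signals were 2.07, 2.07 and 1.98 in KO-labelled hearts, against 1.62, 1.29 and 1.67 in control hearts. The 3 KO-labelled hearts lay close together and above all controls, and control replicate 2, the highest control for Igf1, was here the lowest. The log2 difference was 0.51 ± 0.14 (SE), or 1.43-fold (adjusted p = 0.0276, limma; higher in 3 of 3 hearts). This call was sensitive to single hearts. Without KO-labelled replicate 1, 2 or 3 the adjusted p was 0.0657, 0.0656 and 0.0714, and without control replicate 1 or 3 it was 0.0686 and 0.0570, while without control replicate 2 it passed (adjusted p = 0.0322). With no filter on dim probes the adjusted p was 0.100. That setting adds many tests and also changes the pooled variance, with an SE of 0.16 against 0.14 for the same difference. Over all alternatives it ranged from 0.00472 to 0.100, at log2 differences of 0.36 to 0.75.

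Igf2r (NM_010515), the clearance receptor, had log2 signals of 4.16, 3.87 and 4.17 in KO-labelled hearts, against 3.88, 3.71 and 3.93 in control hearts. KO-labelled replicates 1 and 3 were above all controls, and replicate 2 lay among them. The log2 difference of 0.22 ± 0.14 (SE; 95% interval -0.10 to 0.55) did not pass (adjusted p = 0.229, limma). It passed with quantile scaling (0.36, adjusted p = 0.0443), cyclic loess scaling (0.37, adjusted p = 0.0369) and array weights (0.25, adjusted p = 0.0284), within a range of adjusted p of 0.0284 to 0.480 over all alternatives.

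**Figure D1:**
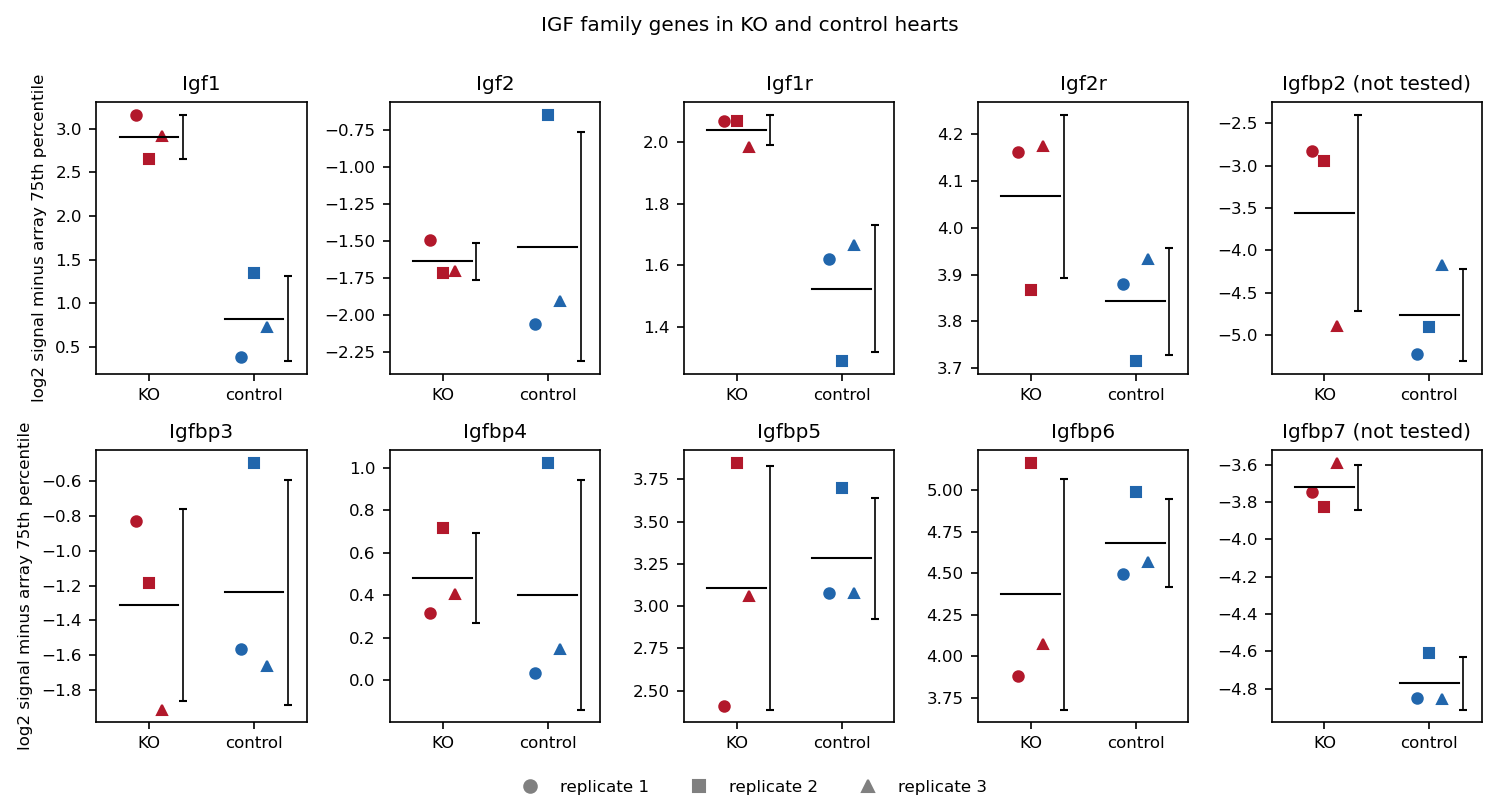
Log2 signal minus the array's 75th percentile (vertical axes, each with its own scale) of the 10 IGF family genes in KO-labelled (KO, red) and control hearts (blue), 1 point per heart with the symbol giving the replicate, the group mean as a line and the SD as a bar. For Igf1 and Igf1r all KO-labelled hearts lie above all control hearts. Igfbp2 and Igfbp7 were too dim to test.

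HIF binds DNA at a short core sequence, the hypoxia response element. The 300 bases around the starts of the 2 genes that rose, and of Igfbp3 as a HIF-responsive gene that did not pass, were read for this core. The windows run from 250 bases before to 50 bases after the start, are from RefSeq on build GRCm38.p6 and are written 5′ to 3′ on the gene's strand. Capitals mark ACGTG or GCGTG on either strand, which read CACGT or CACGC where they lie on the other strand. The palindrome CACGTG counts as both CACGT and ACGTG, which overlap.
Igf1 (chr10:87860861-87861160, plus strand): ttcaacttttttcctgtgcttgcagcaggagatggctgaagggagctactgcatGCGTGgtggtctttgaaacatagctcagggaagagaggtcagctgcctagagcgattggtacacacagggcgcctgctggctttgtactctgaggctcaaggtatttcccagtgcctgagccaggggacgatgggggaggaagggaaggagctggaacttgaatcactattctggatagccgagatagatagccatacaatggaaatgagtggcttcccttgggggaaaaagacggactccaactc
Igf1r (chr7:67952007-67952306, plus strand): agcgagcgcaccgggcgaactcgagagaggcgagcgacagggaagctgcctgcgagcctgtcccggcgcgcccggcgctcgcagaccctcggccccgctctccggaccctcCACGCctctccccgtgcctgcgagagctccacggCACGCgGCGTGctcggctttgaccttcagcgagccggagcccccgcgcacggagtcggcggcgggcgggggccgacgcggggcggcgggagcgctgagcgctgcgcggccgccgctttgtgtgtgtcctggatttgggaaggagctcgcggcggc
Igfbp3 (chr11:7213874-7214173, minus strand): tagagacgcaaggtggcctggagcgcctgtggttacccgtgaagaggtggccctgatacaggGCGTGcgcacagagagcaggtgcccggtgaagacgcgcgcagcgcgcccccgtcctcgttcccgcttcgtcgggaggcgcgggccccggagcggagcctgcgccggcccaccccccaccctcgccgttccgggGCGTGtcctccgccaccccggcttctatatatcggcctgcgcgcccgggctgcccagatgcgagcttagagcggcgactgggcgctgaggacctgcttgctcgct

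The Igf1 window held GCGTG once, 196 bases upstream of the start, and no ACGTG. The Igf1r window held the GCGTG core at 139, 105 and 99 bases upstream, and the Igfbp3 window at 188 and 55 bases upstream. All 10 family genes had at least 1 window, 14 in all, since Igf2 had 4 and Igfbp2 had 2. One or both motifs were found in 8 of the 14 windows and in 7 of the 10 genes, while 43.8% of all 32851 windows of this length held at least 1, 19.6% ACGTG and 32.4% GCGTG. The genes with no match in these windows were Igfbp4, Igfbp5 and Igfbp6. A match is a run of letters in the window and was not tested as a binding site. The windows held 1 match for Igf1, 3 for Igf1r and 2 for Igfbp3, and the relation of match numbers to the signal differences was not tested.

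The binding proteins that could be tested did not pass, and the spread between hearts was wide. Igfbp3 (NM_008343), the main carrier of IGF in blood, had log2 signals of -0.83, -1.19 and -1.91 in KO-labelled hearts, against -1.56, -0.49 and -1.66 in control hearts. The highest heart was control replicate 2 and the lowest KO-labelled replicate 3, and the groups overlapped. The log2 difference was -0.07 ± 0.39 (SE; 95% interval -1.02 to 0.87, adjusted p = 0.901, limma). It was 0.30 without control replicate 2 and 0.23 without KO-labelled replicate 3.

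Igfbp4 (NM_010517), a binding protein that holds IGF back from its receptor until it is cleaved, had 0.32, 0.72 and 0.40 in KO-labelled hearts, against 0.04, 1.02 and 0.15 in control hearts. Replicate 2 was the highest heart in both groups. The log2 difference was 0.08 ± 0.28 (SE; 95% interval -0.59 to 0.74, adjusted p = 0.847, limma). It was 0.39 without control replicate 2, and turned to -0.11 without control replicate 1.

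Igfbp5 (NM_010518), a binding protein with affinity for matrix, had log2 signals of 2.41, 3.85 and 3.06 in KO-labelled hearts, against 3.08, 3.70 and 3.08 in control hearts. KO-labelled hearts were both the highest and the lowest, and replicate 2 was again the highest within each group. The log2 difference was -0.18 ± 0.37 (SE; 95% interval -1.07 to 0.72, adjusted p = 0.732, limma). It turned to 0.17 without KO-labelled replicate 1.

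Igfbp6 (NM_008344), which prefers IGF-II, had 3.88, 5.16 and 4.07 in KO-labelled hearts, against 4.50, 4.99 and 4.56 in control hearts. KO-labelled replicates 1 and 3 were below all controls and replicate 2 above them. The log2 difference was -0.31 ± 0.35 (SE; 95% interval -1.14 to 0.52, adjusted p = 0.504, limma). Without KO-labelled replicate 2 the fall was larger and passed (log2 difference -0.71, adjusted p = 0.0396), whereas the adjusted p over all alternatives ran from 0.0396 to 0.902.

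The remaining binding proteins had little or no signal. Of the 2 Igfbp2 (NM_008342) probes, the better one was clear of background on 2 KO-labelled arrays and on 0 control arrays, with log2 signals of -2.83, -2.95 and -4.89 in KO-labelled hearts, against -5.23, -4.91 and -4.17 in control hearts. Replicates 1 and 2 of the KO-labelled hearts were the high ones, and replicate 3 lay among the controls. The other Igfbp2 probe was above background on 0 arrays, so no fold is given. The single Igfbp7 probe, named by NM_001159518, was clear of background on 0 of the 6 arrays, so no fold is given, and the gene's other curated accession, NM_008048, named no probe.

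**Figure D2:**
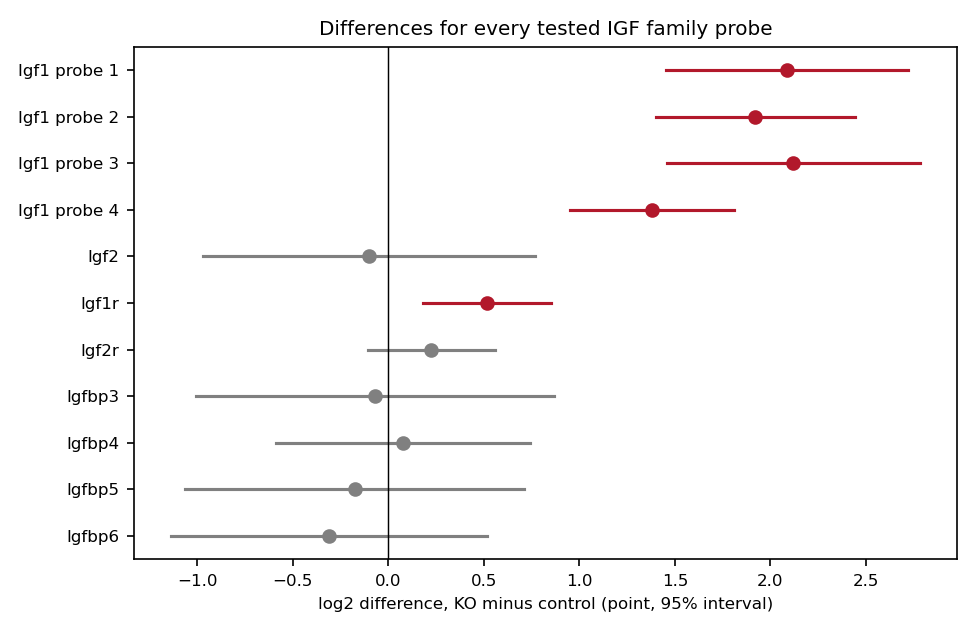
Log2 difference, KO-labelled minus control (horizontal axis; point and 95% interval), for each of the 11 tested IGF family probes, with those that passed in red. The 4 Igf1 probes lie between 1.38 and 2.12 and Igf1r at 0.51, while the intervals of Igf2, Igf2r and the 4 tested binding proteins include 0.

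Markers of other cell types moved with some of these values, and in whole hearts fewer cells of a type and less RNA per cell cannot be told apart. Beside Igf1, 4 of 7 tested macrophage markers were higher in KO-labelled hearts and Cd163 lower, with a summed signal of 142 to 233 times the 75th percentile in KO-labelled hearts and 74.2 to 119 times in control hearts. Of 9 fibroblast markers, 6 were higher, while Pdgfra (log2 difference 0.33), Dpt (-0.15) and Dcn (-0.23) did not pass. The summed signal of the 9 was 1046 to 1178 in KO-labelled hearts and 413 to 764 in control hearts. Over all features 16.1% were higher and 23.0% lower. In both lists control replicate 2 was the highest control, as for Igf1. The part of these cell types in the Igf1 difference was not tested. Of 5 hepatocyte markers, Alb and Apoa1 were above background on 0 of 6 arrays, Apoc3 on 1 KO-labelled and 0 control arrays and Ttr on 1 of each. Serpina1a was above background on 1 KO-labelled array and 3 control arrays, and its log2 difference of -0.92 did not pass (adjusted p = 0.339, limma).

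For surface and fat markers, single hearts stood out. Control replicate 2, high for Igf2, Igfbp3 and Igfbp4, had a summed signal of 4 mesothelial markers of 42.8, where the KO-labelled hearts had 15.6 to 23.2 and the other controls 6.61 and 8.13. KO-labelled replicate 2, the highest heart for Igfbp5 and Igfbp6, had a summed signal of 3 adipocyte markers of 31.0, against 0.511 and 0.679 in the other KO-labelled hearts and 0.434, 1.51 and 8.12 in control hearts. Among the controls the match did not hold, since replicate 2, the highest for Igfbp5 and Igfbp6, had 1.51 and the 8.12 was that of replicate 3. Leptin was above background on 0 of 6 arrays. Of the mesothelial and adipocyte markers tested, 0 of 4 and 0 of 3 passed between the groups. The part of these tissues in the binding protein values was not tested. Of 3 tested skeletal muscle markers, 2 were higher and 1 lower, beside 16.1% and 23.0% of all features. Mybpc2, a fast myosin-binding protein gene, rose 2.55-fold (adjusted p = 0.00143, limma), and Pvalb, a calcium buffer gene, was lower. Tnnt3, a fast troponin gene, was not above background on every control array, where its log2 signals were -3.26, -1.90 and -2.59. It entered the test through the KO-labelled hearts. Its difference of 5.65 (adjusted p = 0.00133, limma), counted here as higher, is set against signal near background, so no fold is given. The summed signal of the 3 markers was 18.3 to 26.7 in KO-labelled and 5.63 to 7.05 in control hearts. Myh1, Myh2 and Myh4 were above background on 0 arrays. The neutrophil markers S100a8 and S100a9 did not pass, with a summed signal of 58.5 in KO-labelled replicate 1, against 3.47 and 4.94 in the other KO-labelled hearts and 1.17 to 4.996 in control hearts. Their part in the IGF values was not tested. Of 7 endothelial markers 0 passed, with a summed signal of 72.4 to 87.0 in KO-labelled and 76.7 to 103 in control hearts. Among smooth muscle and pericyte markers 3 of 7 were higher and 2 lower, beside 16.1% and 23.0% of all features. Of 7 cardiomyocyte markers 6 were lower, which was 2 with quantile or cyclic loess scaling and 4 with spike-in scaling.

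**Figure D3:**
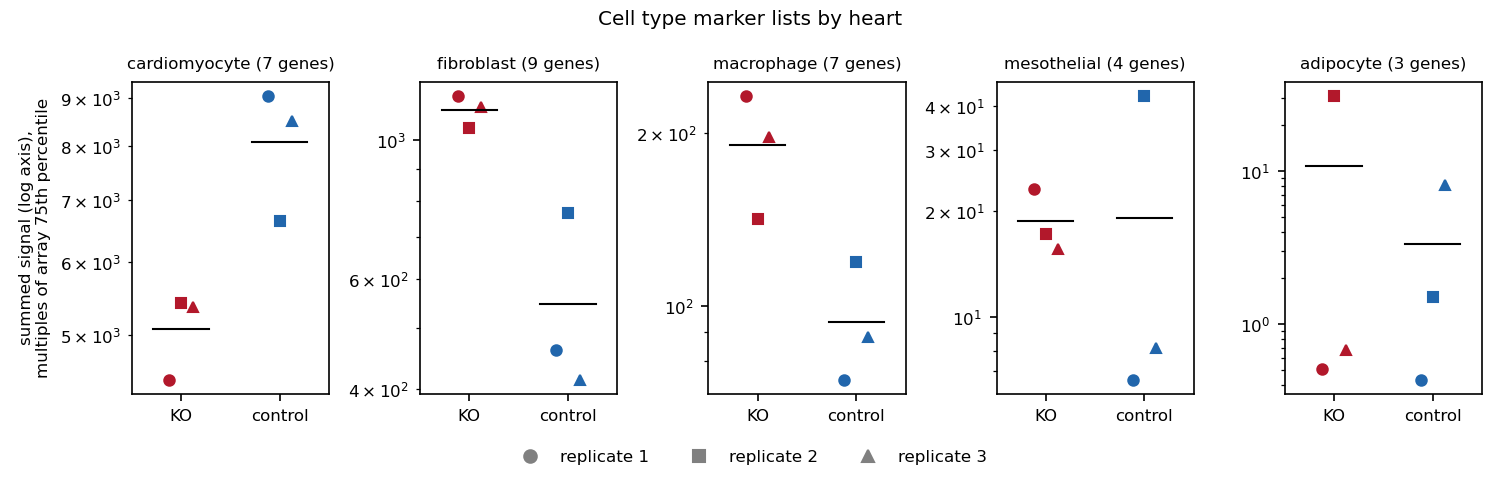
Summed signal of 5 cell type marker lists in each heart, as multiples of the array's 75th percentile (log axes), with KO-labelled hearts (KO) in red, control hearts in blue, the symbol giving the replicate and the line the group mean. The KO-labelled hearts lie above all controls for fibroblast and macrophage markers, and single hearts, control replicate 2 and KO-labelled replicate 2, stand out for mesothelial and adipocyte markers.

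Around the family, 59 genes of 7 lists were followed from the carriers and proteases to the growth hormone axis, of which 50 could be tested, 9 were higher, 15 lower and 26 did not pass, where over all features 16.1% were higher and 23.0% lower. The lists' counts are read beside those shares, and 9 and 15 of 50 lie near them. Among carriers, proteases and inhibitors, 2 of 5 tested were higher and 2 lower. Adam12, a metalloprotease that can cleave binding proteins, rose 2.60-fold (log2 difference 1.38 ± 0.15 SE, adjusted p = 0.00260, limma). Its log2 signals were -1.28, -1.73 and -1.68 in KO-labelled hearts, against -2.93, -2.89 and -3.00 in control hearts. Pappa, the protease known for cleaving IGFBP4, was higher by 1.09 ± 0.29 (SE; adjusted p = 0.0280). Igfals, the subunit that joins IGF and its carrier in the large blood complex, had log2 signals of -3.93, -2.05 and -2.99 in KO-labelled hearts, against -1.50, -1.32 and -1.09 in control hearts. It was above background on 1 KO-labelled array and 3 control arrays, so it entered the test through the controls and its difference of -1.68 (adjusted p = 0.0261), counted here as lower, is set against signal near background. The secreted protease gene Htra1 fell by 0.55 (adjusted p = 0.0171). With the normexp alternative, which used other spot signals and an offset of 50, the differences were 0.48 for Adam12, which passed, 0.34 for Pappa (adjusted p = 0.0806), -0.68 for Igfals, which passed, and -0.26 for Htra1 (adjusted p = 0.0520).

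Among the genes listed here as relatives whose proteins share the IGF binding protein domain, most were higher. The list does not hold every gene with this domain. It leaves out the family's own binding proteins, of which those tested did not pass, and Htra1, which was lower. Of 7 tested, 5 were higher and 0 lower, where over all features 16.1% were higher and 23.0% lower. The list median was 2.04 beside -0.11 for all features. Ccn4, a matricellular gene, had log2 signals of 3.37, 1.98 and 2.77 in KO-labelled hearts, against -0.66, 0.68 and -0.09 in control hearts, a 6.63-fold rise (adjusted p = 0.00616). Ccn2, the connective tissue growth factor gene, rose 4.84-fold (adjusted p = 0.00458), Ccn5 4.10-fold (adjusted p = 0.00512) and Esm1, which encodes the endothelial proteoglycan endocan, 4.32-fold (adjusted p = 0.00125; all limma). The fifth was Ccn1 (log2 difference 1.06 ± 0.31 SE, adjusted p = 0.0349). In each of the 5, the 3 KO-labelled hearts were above all controls, where 22.7% of all features were apart in this direction. The domain relatives Crim1 (-0.05) and Kazald1 (0.07) did not pass.

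Downstream of the receptor, calls ran in both directions. Of 8 tested insulin receptor and adaptor genes, 2 were higher and 3 lower, beside 16.1% and 23.0% of all features. The adaptor Shc1, which links the receptor to Ras, rose 1.62-fold (log2 difference 0.70 ± 0.11 SE, adjusted p = 0.00567), and Grb10, an adaptor that restrains the receptor, was higher by 0.51 (adjusted p = 0.0264). Irs2, an insulin receptor substrate, had log2 signals of 1.85, 2.08 and 1.85 in KO-labelled hearts, against 2.75, 3.16 and 2.78 in control hearts (log2 difference -0.97 ± 0.16 SE, adjusted p = 0.00596). The docking gene Gab1 fell by 0.86 (adjusted p = 0.00818) and Grb14, a relative of Grb10, by 0.78 (adjusted p = 0.0476). With spike-in scaling, 2 of the 8 were higher and 0 lower, and with the mean of a gene's probes 2 were higher and 5 lower. Insr, the insulin receptor gene, did not pass by its brightest probe (log2 difference -0.53, adjusted p = 0.0681, limma). Its other probes were lower and passed when every probe was tested (-0.90 and -0.73, adjusted p = 0.00570 and 0.0186, limma). Of 17 genes of PI3 kinase, Akt and mTOR, 0 were higher and 5 lower, a share lower that is near the 23.0% of all features. They were the PI3 kinase regulatory subunit gene Pik3r1 (log2 difference -1.14 ± 0.23 SE, adjusted p = 0.0114), the kinase genes Akt2 (-0.78 ± 0.14 SE, adjusted p = 0.00826), Akt1 (-0.51), and Mtor (-0.50), and the S6 kinase gene Rps6kb1 (-0.43). Rps6kb1 missed the threshold under 11 of 19 alternatives, among them the mean of its probes (adjusted p = 0.243, limma). The list median was -0.10, close to that of all features, -0.11. Its direction depended on the scaling, with 2 higher, 3 lower and a median of 0.04 after cyclic loess scaling, and 1 higher, 2 lower and a median of 0.14 with spike-in scaling.

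Among the FoxO factors, which Akt keeps out of the nucleus, and their targets, 0 were higher and 2 of 5 lower, beside 23.0% lower over all features. The ubiquitin ligase genes Trim63 and Fbxo32, known as muscle atrophy genes, were those that fell. Trim63 had log2 signals of 4.11, 4.58 and 4.49 in KO-labelled hearts, against 5.81, 5.63 and 5.73 in control hearts (log2 difference -1.32 ± 0.16 SE, adjusted p = 0.00302, limma), and Fbxo32 fell by 1.04 (adjusted p = 0.0350). In the growth hormone axis, which drives Igf1 in liver, 0 of 6 were higher and 3 lower, again beside 23.0% lower over all features. The feedback inhibitor Cish fell by 1.02 (adjusted p = 0.0164), and the signal transducers Stat5b and Stat5a by 0.75 (adjusted p = 0.0248) and 0.68 (adjusted p = 0.0430). With spike-in scaling, 1 gene of the FoxO list and 1 of the growth hormone list were lower and 0 higher. With the mean of a gene's probes, 3 and 4 were lower and 0 higher, so these counts also depend on how probes were combined. Of the genes tied to IGF2, the RNA-binding protein gene Igf2bp2 (log2 difference 0.47 ± 0.28 SE) and the imprinted factor gene Plagl1 (0.79 ± 0.53 SE) did not pass. Plagl1 passed without control replicate 2 (1.32, adjusted p = 0.0486).

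Of the 24 genes named as changed in these lists, 9 passed under all alternatives run, namely Adam12, Akt2, Ccn2, Ccn4, Ccn5, Esm1, Pik3r1, Shc1 and Trim63. The others each missed the threshold under at least 1. Without control replicate 3, 13 of the 24 did not pass (adjusted p of 0.0574 to 0.129), without control replicate 1, 12 (0.0567 to 0.145), and without KO-labelled replicate 3, 10 (0.0507 to 0.101). Without KO-labelled replicate 1 there were 5, among them Grb10 and Stat5a (0.0593 to 0.118), without KO-labelled replicate 2 there were 3, namely Akt1, Grb14 and Rps6kb1 (0.0543 to 0.0876), and without control replicate 2 the 3 were Ccn1, Igfals and Stat5a (0.0589 to 0.0684). With no filter on dim probes 13 did not pass (0.0527 to 0.126), and with spike-in scaling 10 (0.0501 to 0.268). Irs2 and Gab1 missed the threshold only with spike-in scaling (adjusted p = 0.0598 and 0.0697).

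**Figure D4:**
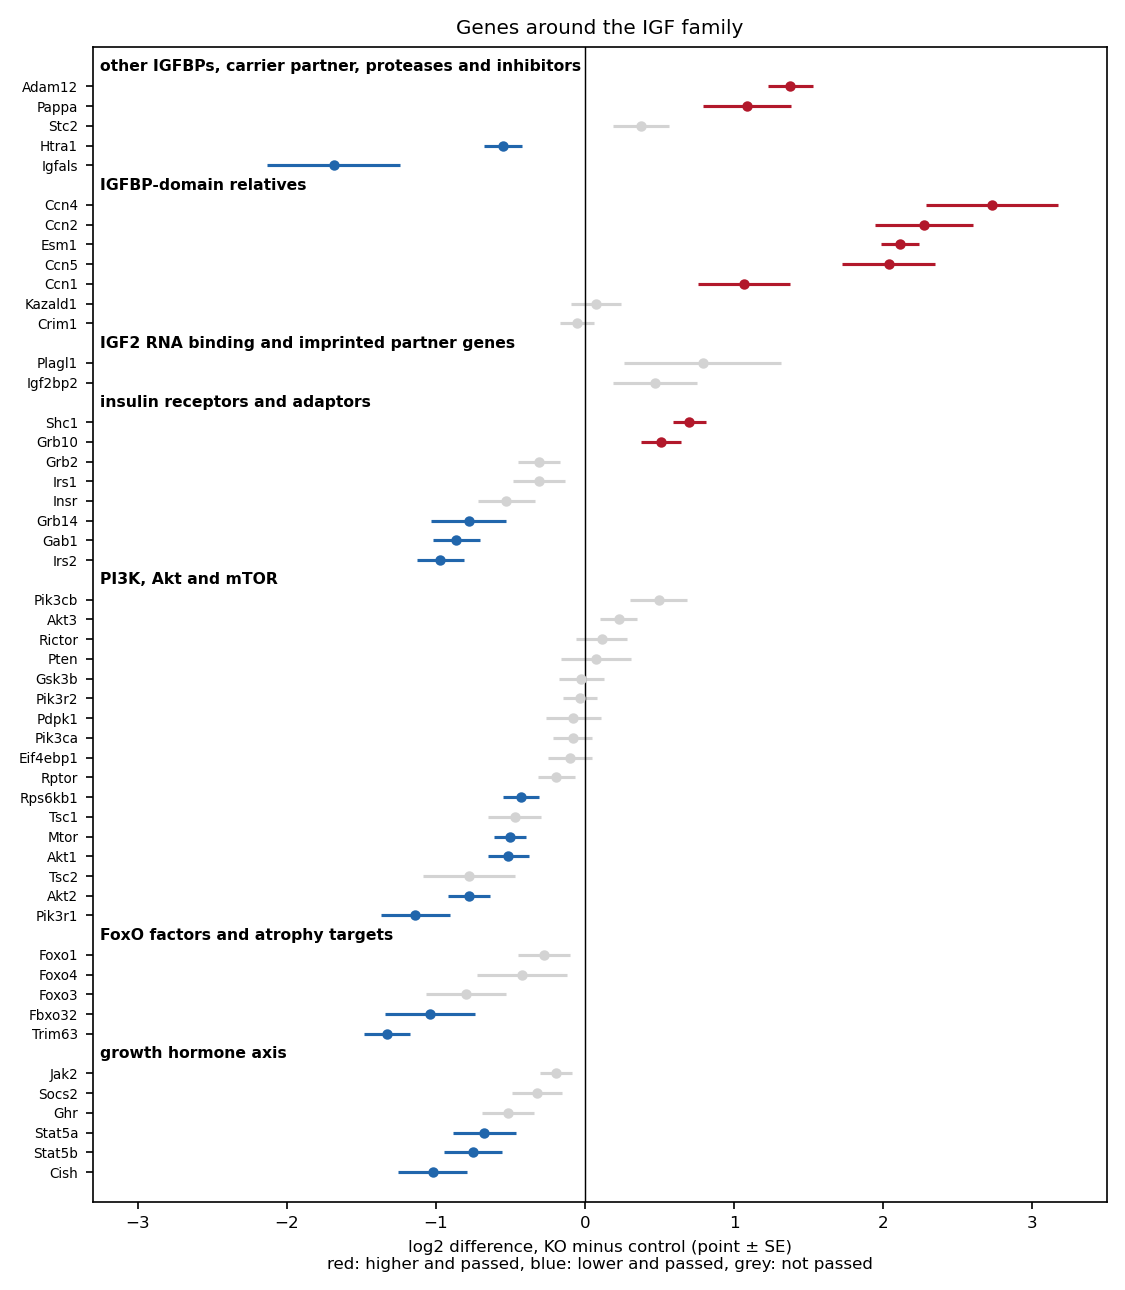
Log2 difference, KO-labelled minus control, with its SE (horizontal axis) for the 50 tested genes of 7 lists around the IGF family, red where higher and passed, blue where lower and passed and grey where not passed. Of the 7 genes in the list of IGF binding protein domain relatives, 5 lie to the right, up to 2.73, and Crim1 and Kazald1 lie near 0. The calls in the PI3 kinase, FoxO and growth hormone lists lie to the left.

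Over the 6 hearts, the genes whose log2 values were most like those of Igf1 were Cdca3, a cell division gene, Fgd2, which encodes an exchange factor for a small GTPase, and Oas1a, an interferon-induced synthetase gene, with Pearson correlations of 0.9997, 0.9997 and 0.9996. These follow the group difference and the high control replicate 2 together. Cdca3 had log2 signals of 1.94, 1.23 and 1.53 in KO-labelled hearts, against -2.03, -0.66 and -1.65 in control hearts. The genes most like Igf1r were Cdyl2, a chromodomain gene, Zdhhc18, a palmitoyltransferase gene, and Papss2, a sulfate activation gene, at 0.996, 0.994 and 0.993. They share the low control replicate 2. With 20020 features and 6 hearts, correlations of this size are a description of the profile.

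**Figure D5:**
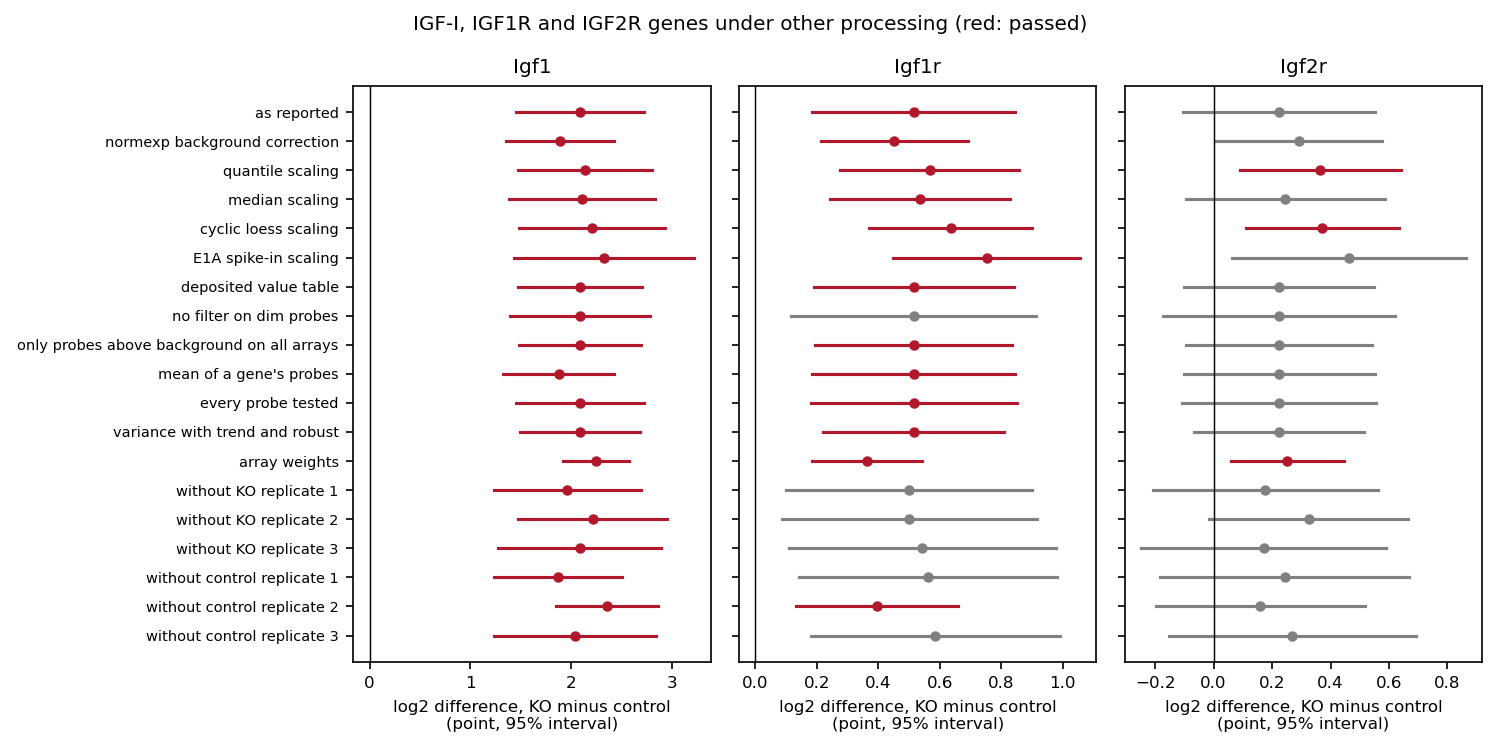
Log2 difference, KO-labelled minus control (horizontal axis; point and 95% interval), of Igf1, Igf1r and Igf2r as reported and under alternative processing or without single hearts, red where the adjusted p passed. Igf1 stays between 1.87 and 2.35 and passes throughout, Igf1r passes in part, and Igf2r passes under quantile scaling, cyclic loess scaling and array weights.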

How the data were processed

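The deposited scanner files hold the processed intensity of each spot on a linear scale, not scaled between arrays, and its quality flags, from Agilent Feature Extraction 11.0.1.1 per the file headers. A value table, also deposited, holds the authors' log2 values. The submitters' processing notes name R 3.1.3, and how these values were normalized is not stated. Their column medians were -0.04, -0.05 and -0.02 for KO-labelled and 0.09, -0.02 and 0.07 for control arrays. Deviations from each probe's mean correlated with the scanner's at 0.937 to 0.964, with slopes of 0.838 to 0.951, so the direction matches, while the centring method stays unknown. For the family genes its differences were almost those reported, with 2.087 beside 2.086 for Igf1 and 0.516 beside 0.515 for Igf1r. For these genes it is therefore hardly a different processing. This table served only as an alternative.

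Processed signals were put on the log2 scale after leaving out outlier spots, averaged over spots of a probe and set against the 75th percentile of their array. Of 55681 probes, 73 with only outlier spots on some array were left out. Accessions were matched, without versions, to RefSeq genes, which named 26551 probes. The array was designed on an older genome build, so no probe positions are given, and the positions of gene-start windows are those of RefSeq on GRCm38.p6. A probe was tested if all 3 arrays of either group measured it well above background, and the brightest probe stood for a gene. The software was limma 3.58.1 and data.table (version 1.17.8) under R 4.3.3, with all 6 hearts in 1 fit, 2-sided and checked on simulated data. The smallest p of an exact permutation test for 1 gene in this design is 0.1, so calls rest on variance pooled across genes. The number of arrays limits precision.

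The text names all family genes, the hydroxylase genes, up to 4 passed genes of each list by smallest p (2 where fewer than 2 passed), and the 3 genes most like each of the 2 family genes with the largest passed difference. Ccn1, Grb14, Rps6kb1 and Insr, and the marker and domain genes named beside counts (Cd163, Pdgfra, Dpt, Dcn, Alb, Apoa1, Apoc3, Ttr, Serpina1a, leptin, Tnnt3, Mybpc2, Pvalb, Myh1, Myh2, Myh4, S100a8, S100a9, Crim1, Kazald1), were named after their values were seen. Older symbols were updated through RefSeq synonyms. Members and lists were chosen with earlier results of these data known. Alternatives were normexp (offset 50, on median spot signals, since a mean was not among the columns), quantile, median, cyclic loess and spike-in scaling (7 E1A probes), the deposited table, other filters, other ways to combine probes, other variance models, array weights, a replicate block and leaving out each heart.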

Additional observations from a re-analysis of the deposited data

Results flagged for a closer look

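The better Igfbp2 probe was left out of the test as too dim, yet it was well above background on 2 KO-labelled arrays and on 0 control arrays. Its mean log2 signal was -3.56 ± 1.16 in KO-labelled hearts and -4.77 ± 0.54 in control hearts (SD, n = 3 each), a difference of 1.21. With no filter on dim probes the better probe did not pass (adjusted p = 0.266, limma). The other Igfbp2 probe, above background on 0 arrays, was higher in KO-labelled hearts with every probe tested and no filter (adjusted p = 0.0262, limma).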

How the results depend on the processing

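Igf1 kept its direction and passed under all 19 alternatives, and Igf1r kept its direction and passed under 12. The number of family genes called higher, 2, was 3, with Igf2r, under quantile scaling, cyclic loess scaling and array weights, 1 with the replicate block and 1 to 2 when single hearts were left out. Without KO-labelled replicate 3 the 2 were Igf1 and Igfbp2, which then met the filter only through the remaining KO-labelled arrays. The number called lower, 0, was 0 to 1, the 1 being Igfbp6 without KO-labelled replicate 2. The count over all genes and features, 7820, was 4345 with no filter on dim probes, 13709 with array weights, 4854 with the replicate block and 3904 to 8690 without single hearts (the lowest without control replicate 1, 4023 without control replicate 3 and 5122 without KO-labelled replicate 3). With no filter the 2 family genes called were Igf1 and Igfbp7, whose probe was not well above background on any array. The deviations of same-numbered hearts correlated at -0.150, -0.125 and -0.099, and those of unlike-numbered hearts at -0.174 to 0.272. With 3 hearts per group, whose deviations sum to 0, these values cannot decide whether hearts were paired. Same-numbered hearts lay in the same slide row. Igf1r did not pass with the block (adjusted p = 0.0717), which leaves fewer degrees of freedom, and Igf1 did (adjusted p = 0.0296). Of the 24 named pathway genes called, 11 did not pass with the block (adjusted p of 0.0511 to 0.0997). A slide block could not be fitted, since all arrays lay on 1 slide. Of the genes called, 41.1% were higher. That share was 55.3% after cyclic loess and 59.5% after spike-in scaling, and these moved the median difference of all features by 0.14 and 0.24. Differences that did not pass changed sign for 4 genes. Igf2 had 0.031 with cyclic loess, 0.14 with spike-in scaling, 0.18 with array weights and -0.36 to 0.35 over all alternatives. Igfbp3 had 0.048 with cyclic loess, 0.17 with spike-in scaling and -0.31 to 0.30 over all. Igfbp5 had 0.052 with normexp, 0.063 with spike-in scaling and -0.55 to 0.17 over all, with 0.03 without control replicate 2. Igfbp4 had -0.11 to 0.39 over all, with -0.04 without KO-labelled replicate 2 and -0.05 without control replicate 3. The cause of these changes was not tested.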
